A study of Homo sapiens with 12 samples.

Results

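Genes of fatty acid synthesis, elongation and desaturation were followed in MDA-MB-231 cells, an established human breast cancer line, on 12 expression arrays. The list holds 10 enzymes: ACLY and ACSS2, which supply acetyl-CoA, ACACA and FASN, which build palmitate, the elongases ELOVL1, ELOVL5 and ELOVL6, and the desaturases SCD, FADS1 and FADS2. Members were all probe sets (groups of short probes that report 1 transcript) that the array annotation maps to these genes. This gave 22 probe sets for 9 of the 10 genes, out of 22215 probe sets tested and 11965 genes, and no probe set was listed for ACSS2. Cells had been treated for 24 h with 5 uM SAHA plus 2.5 mM pargyline (called COMBO), with 5 uM SAHA alone, with 2.5 mM pargyline alone, or with DMSO, the vehicle. Each of the 4 groups held 3 arrays, which the labels call biological replicates without saying how the cultures were kept apart. SAHA (vorinostat) inhibits histone deacetylases, and pargyline inhibits monoamine oxidases and can inhibit the histone demethylase LSD1. All values come from 1 tumour line, so they say nothing of other breast cells.

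Fatty acid synthesis starts from citrate, which ACLY cleaves in the cytosol to acetyl-CoA. ACACA carboxylates acetyl-CoA to malonyl-CoA, and FASN joins these units to palmitate. Elongases lengthen the chain in the endoplasmic reticulum, SCD sets the first double bond into saturated chains, and FADS1 and FADS2 desaturate dietary polyunsaturated chains. The transcription factors encoded by SREBF1 and SREBF2 are the best known activators of these genes, and many tumours, breast tumours among them, make much of their own palmitate.

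The deposited values are log2 intensities, and a difference of 1 on this scale is a 2-fold change. Each gene is described by its brightest probe set (highest mean over the 12 arrays), and the other probe sets are given beside it. A gene is said to have risen or fallen where limma's adjusted p, over all 22215 probe sets of a comparison, was under 0.05. FADS1 and ELOVL1 are known here only through 5 probe sets that are each listed together with a microRNA gene, MIR1908 or MIR6734, which lies inside FADS1 or ELOVL1. The target accession of the brightest ELOVL1 probe set is a RefSeq transcript of ELOVL1, and those of the other ELOVL1 probe set and of all 3 FADS1 probe sets are not RefSeq transcripts of these genes. The medians of the arrays lay between 5.11 and 5.34, and replicates correlated across probe sets with r from 0.998 to 0.999. The 3' minus 5' difference of the actin control, a sign of RNA integrity, averaged 0.89 ± 0.05 in COMBO, 0.84 ± 0.07 in SAHA, 0.81 ± 0.17 in pargyline and 0.79 ± 0.03 in DMSO arrays (SD, n = 3 each), and its part in the results was not tested. VIM and AXL, genes of this mesenchymal line, lay at percentiles 99.6 and 96.9 of probe sets, while the receptor and luminal genes ESR1, PGR and FOXA1 lay at percentiles 42.5, 22.1 and 41.1, with ERBB2 and GATA3 higher at 55.1 and 60.2, and the adipocyte genes ADIPOQ, PLIN1 and LEP lay at 35.3, 2.8 and 26.7. ERBB2 averaged 5.06, 5.19, 8.21 and 8.28 and GATA3 5.75, 6.27, 9.42 and 9.23 in COMBO, SAHA, pargyline and DMSO cells. The means of these luminal markers were thus lower in both groups given SAHA. So were those of the keratin gene KRT18 and of the mesenchymal genes AXL, CD44, MSN and CAV1 (CAV1 12.99, 13.25, 14.44 and 14.63 in the same order). VIM stayed between 14.80 and 14.90 and EGFR between 11.26 and 11.72. The keratin gene KRT19 averaged 12.89, 12.99, 11.22 and 10.24, and KRT8 11.63, 11.89, 11.45 and 11.59. The part of these marker genes in the results was not tested. A normalized array gives shares of the RNA, so fewer cells and less RNA per cell cannot be told apart.

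The promoters of 4 members are shown because these genes part ways in the results below: ACLY and SCD were highest with both drugs, and ELOVL5 and ELOVL6 moved in opposite directions with SAHA. They are RefSeq windows of assembly GRCh38.p14, from 250 bases before to 50 bases after the annotated start, printed 5′ to 3′ on the strand of the gene. ACLY lies at chr17:41918973-41919272 on the minus strand, SCD at chr10:100346983-100347282 on the plus strand, ELOVL5 at chr6:53348901-53349200 on the minus strand and ELOVL6 at chr4:110198566-110198865 on the minus strand. Capitals mark matches, on either strand, to the NF-Y box CCAAT, the Sp1 box GGGCGG and the E-box CACGTG.
ACLY: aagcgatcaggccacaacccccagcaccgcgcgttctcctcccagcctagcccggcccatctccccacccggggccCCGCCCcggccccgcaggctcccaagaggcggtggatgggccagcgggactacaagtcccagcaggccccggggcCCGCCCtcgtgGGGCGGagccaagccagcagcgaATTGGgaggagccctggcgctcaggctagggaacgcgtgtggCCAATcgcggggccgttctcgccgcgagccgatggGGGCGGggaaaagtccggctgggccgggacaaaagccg
SCD: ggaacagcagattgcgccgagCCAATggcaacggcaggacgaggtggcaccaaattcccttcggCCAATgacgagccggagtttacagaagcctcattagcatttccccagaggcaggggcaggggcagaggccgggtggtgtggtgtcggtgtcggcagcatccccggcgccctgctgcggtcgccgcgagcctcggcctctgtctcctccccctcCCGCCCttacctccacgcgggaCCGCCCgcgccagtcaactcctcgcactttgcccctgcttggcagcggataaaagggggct
ELOVL5: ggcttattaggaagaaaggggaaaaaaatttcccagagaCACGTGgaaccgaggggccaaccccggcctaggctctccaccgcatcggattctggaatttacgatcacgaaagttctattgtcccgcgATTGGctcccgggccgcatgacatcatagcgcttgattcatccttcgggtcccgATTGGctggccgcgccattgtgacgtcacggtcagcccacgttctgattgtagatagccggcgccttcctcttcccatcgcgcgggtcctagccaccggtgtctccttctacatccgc
ELOVL6: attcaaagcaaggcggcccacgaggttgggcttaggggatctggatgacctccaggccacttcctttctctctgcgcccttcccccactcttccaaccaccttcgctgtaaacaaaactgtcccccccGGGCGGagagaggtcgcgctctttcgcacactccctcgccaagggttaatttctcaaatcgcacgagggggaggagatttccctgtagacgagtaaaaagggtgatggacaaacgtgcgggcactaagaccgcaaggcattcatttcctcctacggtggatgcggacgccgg

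Windows were at hand for 9 of the 10 genes, FASN being the exception. The NF-Y box was found in 5 of these 9 (ACLY, ACSS2, ELOVL1, ELOVL5 and SCD), against 35.7% of 27305 RefSeq windows of the same length. The Sp1 box was found in 7 of 9, against 44.6%, and the E-box in ELOVL5 alone, against 7.43%. In ELOVL1 an NF-Y and an Sp1 match overlapped, and in ACACA a run of Sp1 matches overlapped each other. The full sterol element SRE-1, bound by SREBPs, was found in 0 of 9 windows, against 0.0476% of all, and its shorter form TCACNCCAC in 0 of 9, against 1.15%. A match is a string of letters and not a bound site, and a missing match says nothing of the factor. ELOVL6, which fell with SAHA, held an Sp1 match but no NF-Y match, and ELOVL5, which rose, held 2 NF-Y matches and no Sp1 match. ELOVL1, which also rose with SAHA, held matches of both kinds. A relation of matches to changes was not tested.

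With both drugs, 7 of the 9 measured genes rose against DMSO and 0 fell: ACLY, FASN, ELOVL1, ELOVL5, SCD, FADS1 and FADS2. Over all genes 24% rose and 23.7% fell in that comparison, by the same rule. With SAHA alone, 2 rose (ELOVL1 and ELOVL5) and 1 fell (ELOVL6), against 22.7% and 22.8% of all genes, so that the share was no higher than the background. With pargyline alone, 4 rose (ACLY, ELOVL6, SCD and FADS1) and 0 fell, against 7.96% and 6.78%. These counts come from the fit without pairing, and the ACLY rise with pargyline was lost once equal replicate numbers were treated as pairs (adjusted p = 0.0603). The median change of the 9 genes was 0.67 in COMBO, -0.01 in SAHA and 0.31 in pargyline, and the median of all genes lay between -0.02 and 0.00 in these comparisons. The arrays of a group were all apart from the DMSO arrays for 8 of the 9 genes in COMBO, 3 in SAHA and 5 in pargyline, against 66%, 52.9% and 30.8% of all genes. These shares of all genes include dim probe sets, whereas the brightest probe sets of all 9 genes lie above the median level. In a fit of the 11108 probe sets at or above that level, 4017 rose and 4238 fell in COMBO, 3872 and 4160 in SAHA, and 1602 and 1415 in pargyline. All 3 comparisons share the DMSO arrays. Centring each array on its median moved the median of all genes to -0.18 (COMBO), -0.11 (SAHA) and -0.15 (pargyline), and then 7, 2 and 3 of the 9 genes rose and 1, 2 and 0 fell. Over all genes that scaling turned the split to 2473 rises and 7651 falls in COMBO, 2413 and 6216 in SAHA, and 888 and 6296 in pargyline.

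**Figure D1:**
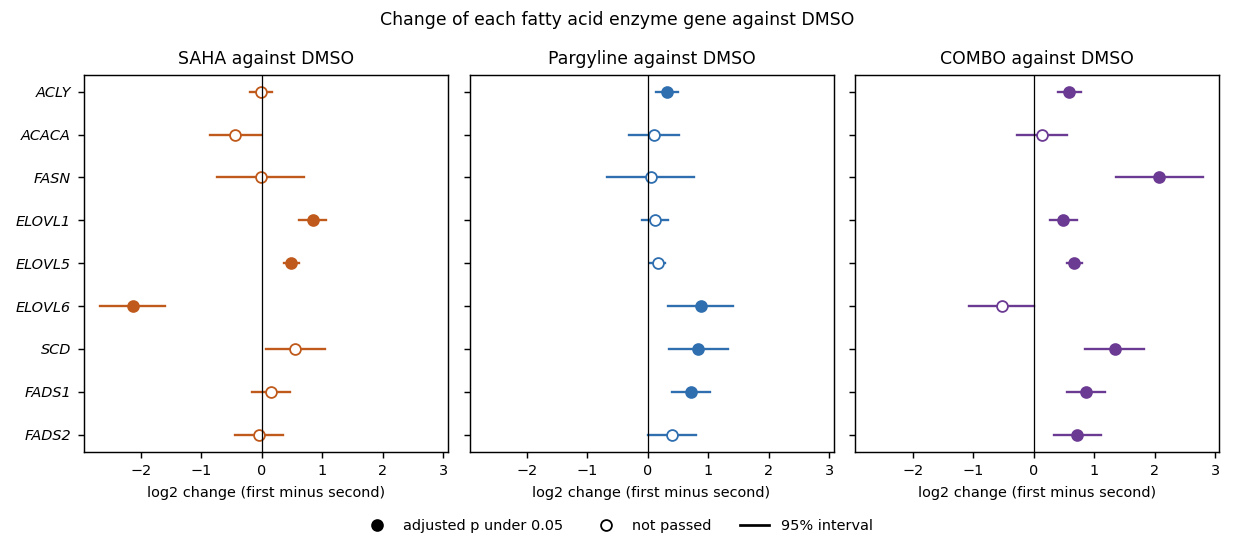
Log2 change against DMSO (horizontal axis) of the 9 measured genes (rows) in SAHA, pargyline and COMBO cells. Points are changes on the brightest probe set, lines are 95% intervals, and filled points passed at an adjusted p under 0.05 in the fit without pairing. FASN lies near 0 with each drug alone and at 2.08 with both, and ELOVL6 lies at -2.14 with SAHA and at 0.87 with pargyline.

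FASN, the multienzyme that makes palmitate, was high in COMBO cells alone. It read 12.95, 13.24 and 12.43 in the 3 COMBO arrays, 10.87, 10.27 and 11.20 in the SAHA arrays, 10.93, 10.36 and 11.26 in the pargyline arrays and 10.71, 10.52 and 11.16 in the DMSO arrays. Every COMBO array lay above every other array, while the remaining 3 groups overlapped. Against DMSO the COMBO change was 2.08 ± 0.32 (log2 ± SE, n = 3 arrays per group), or 4.22-fold, with adjusted p = 0.000409. FASN rose as far over each single drug, by 2.09 ± 0.32 over SAHA (adjusted p = 0.00336) and by 2.02 ± 0.32 over pargyline (adjusted p = 0.000538). It was the 17th highest rise of 11965 genes when COMBO was set against SAHA. The single-drug changes were -0.02 with SAHA (95% interval -0.74 to 0.70) and 0.05 with pargyline (-0.67 to 0.77). These intervals are wide, so smaller changes in either direction could not be detected.

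The interaction is the COMBO change minus the sum of both single-drug changes, and asks whether the drugs add up on the log2 scale. For FASN it was 2.04 ± 0.45, the 9th highest of 11965 genes, with adjusted p = 0.0496, and FASN was the 1 member of 9 that passed, against 3.25% of all genes. This p lies just under the threshold. The interaction did not pass with quantile normalization (adjusted p = 0.0608), a trended and robust prior (adjusted p = 0.0582) or equal replicate numbers treated as a block (adjusted p = 0.0549). Leaving out 1 array at a time kept the FASN interaction between 1.79 and 2.26, with adjusted p between 0.0339 and 0.115, and it passed in 2 of the 12 fits, those without SAHA replicate 3 or COMBO replicate 3. The COMBO rises of FASN over DMSO, SAHA and pargyline passed in all 12. The further FASN probe set read between 1.96 and 2.28 on all arrays, near the bottom of the scale, with a COMBO change of 0.17 (adjusted p = 0.0248).

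**Figure D2:**
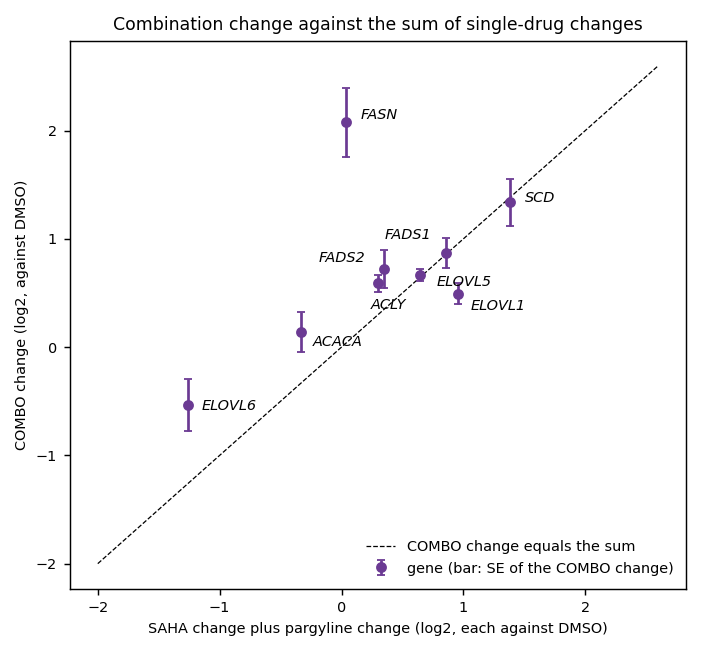
COMBO change against DMSO (vertical axis, log2, bars SE) plotted on the sum of the SAHA and pargyline changes (horizontal axis, log2) for the 9 genes. The dashed line marks a COMBO change equal to that sum, and both axes share the DMSO arrays. FASN stands 2.04 above the line, and SCD, FADS1 and ELOVL5 lie on it within 0.05.

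ACACA, the rate-setting carboxylase just before FASN in the pathway, did not pass against DMSO with any treatment on its brightest probe set. It read 10.22, 10.60 and 10.37 in COMBO, 9.76, 9.53 and 10.15 in SAHA, 10.42, 10.09 and 10.56 in pargyline and 10.13, 10.14 and 10.49 in DMSO arrays. Only the COMBO and SAHA arrays were apart from each other. The COMBO change against DMSO was 0.14 (95% interval -0.28 to 0.56, adjusted p = 0.599), beside an interval of 1.36 to 2.80 for FASN. ACACA was lower in SAHA than in pargyline cells by -0.54 ± 0.19 (adjusted p = 0.0424), although their arrays overlapped, and this call held in 5 of the 12 fits without 1 array. It was lost with quantile normalization (adjusted p = 0.0668) and on the mean of the ACACA probe sets (-0.16, adjusted p = 0.365). COMBO against SAHA gave 0.58 ± 0.19, which did not pass (adjusted p = 0.0729), but passed once equal replicate numbers were treated as pairs (0.0447). A dimmer ACACA probe set read 4.93 to 5.10 in COMBO and 4.46 to 4.85 in DMSO arrays and rose by 0.38 (adjusted p = 0.0413). In SAHA cells it went the other way from the brightest. It changed by 0.23 against pargyline (adjusted p = 0.225) and by 0.32 against DMSO (adjusted p = 0.0886), neither past the threshold.

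ACLY, the citrate-cleaving enzyme, rose with pargyline and with both drugs. It read 13.73, 13.86 and 13.50 in COMBO, 13.12, 13.07 and 13.10 in SAHA, 13.36, 13.42 and 13.49 in pargyline and 13.06, 13.06 and 13.20 in DMSO arrays. The COMBO arrays were the highest and the pargyline arrays next, and SAHA and DMSO overlapped. The change against DMSO was 0.59 ± 0.08 in COMBO (adjusted p = 0.000215), -0.01 ± 0.08 in SAHA (adjusted p = 0.98) and 0.31 ± 0.08 in pargyline (adjusted p = 0.0355). SAHA cells lay below pargyline cells by -0.33 ± 0.08 (adjusted p = 0.00962). Its 2 other probe sets gave larger changes, 0.86 and 1.02 in COMBO and 0.59 and 0.75 in pargyline, all past the threshold. COMBO exceeded pargyline by 0.27 ± 0.08 on the brightest probe set (adjusted p = 0.023), but not past the threshold on the other 2 (adjusted p = 0.228 and 0.243) or with array centring (0.0717), and the call failed without pargyline replicate 1 or 2 or COMBO replicate 1 or 2. The pargyline call against DMSO on the brightest probe set was lost once equal replicate numbers were treated as pairs, the blocked value being adjusted p = 0.0603, and with array centring (0.19, adjusted p = 0.104).

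**Figure D3:**
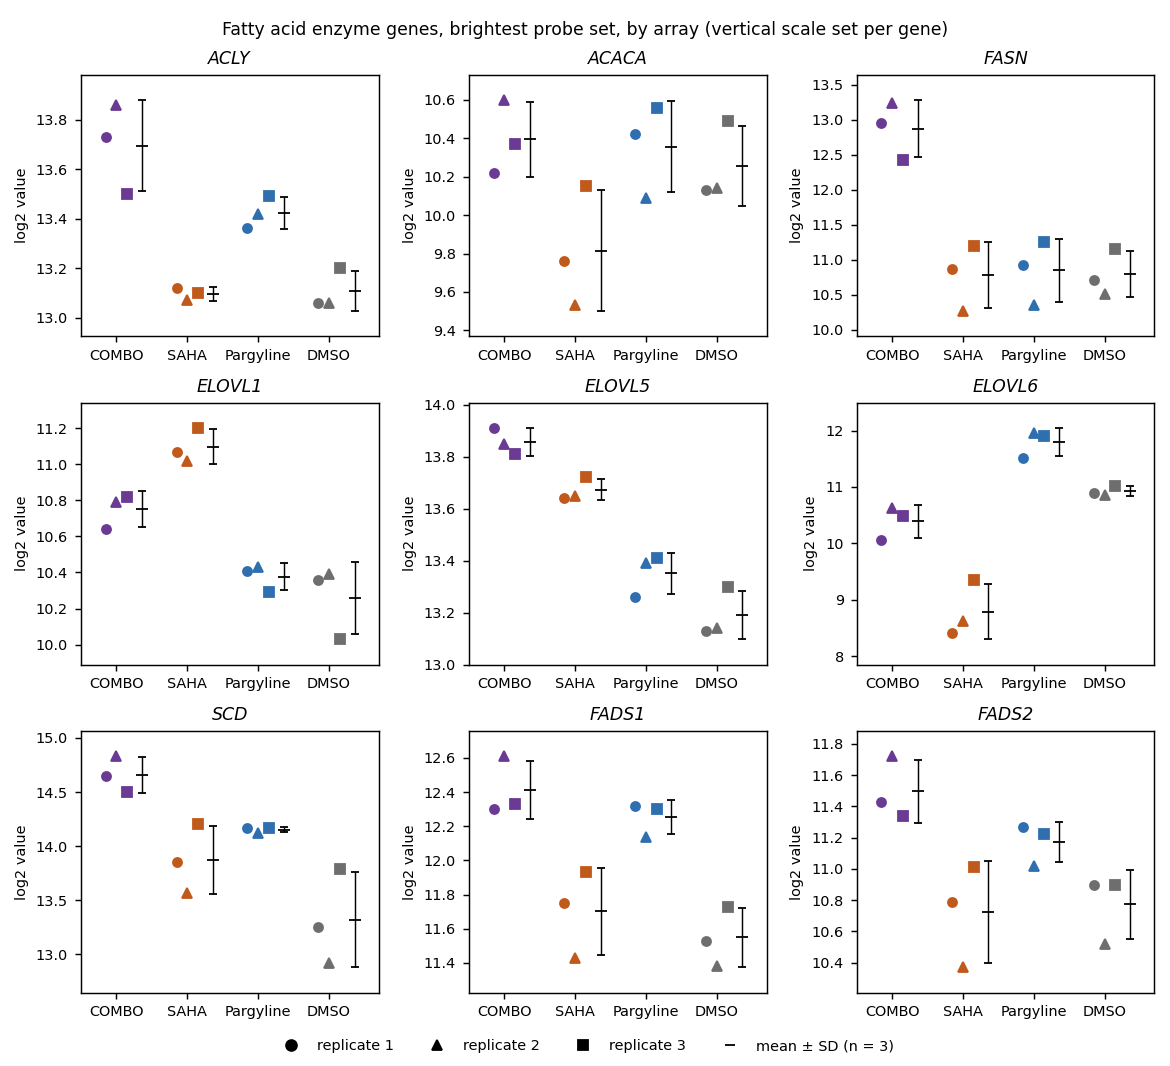
Log2 value of the brightest probe set of each measured gene on all 12 arrays (vertical axis, scaled per gene), in COMBO, SAHA, pargyline and DMSO cells. Symbols give the replicate number, and bars give the mean ± SD (n = 3). The 3 COMBO arrays of FASN stand at 12.43 to 13.24, and no other array exceeds 11.26.

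Among the elongases ELOVL6, which carries palmitate on to stearate, moved most and in opposite directions with the drugs. It read 10.06, 10.62 and 10.49 in COMBO, 8.40, 8.62 and 9.34 in SAHA, 11.52, 11.96 and 11.91 in pargyline and 10.89, 10.86 and 11.02 in DMSO arrays. No groups overlapped. ELOVL6 fell by 2.14 ± 0.24 with SAHA against DMSO, to a level 4.39-fold lower (adjusted p = 5.27e-05), and rose by 0.87 ± 0.24 with pargyline (adjusted p = 0.0425). SAHA set against pargyline gave -3.01 ± 0.24 (adjusted p = 5.96e-06). With both drugs it lay between the single drugs: 1.60 ± 0.24 above SAHA (adjusted p = 0.00307), -1.41 ± 0.24 from pargyline (adjusted p = 0.000868), and -0.53 ± 0.24 from DMSO, which did not pass (adjusted p = 0.11). That last difference passed as a fall with array centring (-0.70, adjusted p = 0.0141), when these groups were fitted alone (adjusted p = 0.0466) and without SAHA replicate 3 (adjusted p = 0.0279). It also passed with equal replicate numbers treated as a block (adjusted p = 0.0406). The other ELOVL6 probe set changed by -2.74 with SAHA (adjusted p = 0.00012), by 1.08 with pargyline (adjusted p = 0.0747) and by -0.74 with both (adjusted p = 0.126).

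ELOVL1 and ELOVL5 went the other way with SAHA. ELOVL1, which extends saturated and monounsaturated chains to very long ones, read 10.64, 10.79 and 10.82 in COMBO, 11.07, 11.02 and 11.20 in SAHA, 10.41, 10.43 and 10.29 in pargyline and 10.36, 10.39 and 10.03 in DMSO arrays. The SAHA arrays were highest, the COMBO arrays next, and pargyline and DMSO overlapped. ELOVL1 rose by 0.84 ± 0.10 with SAHA (adjusted p = 6.58e-05) and by 0.49 ± 0.10 with both drugs (adjusted p = 0.00205), and changed by 0.12 ± 0.10 with pargyline (adjusted p = 0.538). COMBO lay below SAHA by -0.35 ± 0.10 (adjusted p = 0.0445), a call that was lost in the paired fit (adjusted p = 0.0664). The second ELOVL1 probe set gave 0.84, 0.54 and 0.08 for SAHA, COMBO and pargyline.

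ELOVL5, which extends polyunsaturated chains, read 13.91, 13.85 and 13.81 in COMBO, 13.64, 13.65 and 13.72 in SAHA, 13.26, 13.39 and 13.41 in pargyline and 13.13, 13.14 and 13.30 in DMSO arrays. The COMBO arrays were highest and the SAHA arrays next, and pargyline and DMSO overlapped. It rose by 0.67 ± 0.05 with both drugs (adjusted p = 5.76e-06) and by 0.48 ± 0.05 with SAHA (adjusted p = 5.91e-05), and changed by 0.16 ± 0.05 with pargyline (adjusted p = 0.0959). SAHA exceeded pargyline by 0.32 ± 0.05 (adjusted p = 0.000913). A dim ELOVL5 probe set read 4.83 to 5.29 in COMBO, 5.53 to 5.80 in SAHA, 3.05 to 3.69 in pargyline and 3.61 to 3.72 in DMSO arrays. It rose by 1.99 ± 0.16 with SAHA (adjusted p = 7.03e-06) and by 1.38 ± 0.16 with both drugs (adjusted p = 6.84e-05). With pargyline its change was -0.32 ± 0.16 (adjusted p = 0.291). On this probe set COMBO lay below SAHA by -0.61 ± 0.16 (adjusted p = 0.0377), the reverse of the order on the brightest one. The third stayed between 2.57 and 2.66 on all arrays.

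SCD, the delta-9 desaturase that makes oleate, rose with pargyline and with both drugs. Its brightest probe set read 14.65, 14.83 and 14.50 in COMBO, 13.85, 13.57 and 14.20 in SAHA, 14.17, 14.12 and 14.17 in pargyline and 13.25, 12.92 and 13.79 in DMSO arrays. The COMBO arrays were above all others, and SAHA overlapped both pargyline and DMSO. The change was 1.34 ± 0.22 in COMBO (2.53-fold, adjusted p = 0.000578), 0.55 ± 0.22 in SAHA (adjusted p = 0.0732) and 0.83 ± 0.22 in pargyline (adjusted p = 0.0344). The interaction was -0.05 (95% interval -0.74 to 0.64), so the COMBO change lay near the sum of the single changes.

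The probe sets of SCD differed in the size of the change. On the probe set with the largest change, COMBO arrays read 12.01, 12.21 and 11.53 against 8.36, 7.49 and 9.11 in DMSO arrays, a change of 3.60 ± 0.44 (adjusted p = 8.63e-05), and on another the change was 3.32 (adjusted p = 5.15e-05). The remaining one gave 2.42. All 3 of these gave a rise with SAHA, of 1.03 to 1.90, where the brightest did not pass. They also rose in COMBO over pargyline, by 1.15, 1.96 and 2.05 (adjusted p = 0.00727, 0.00191 and 0.00379), where the brightest gave 0.50 and did not pass (adjusted p = 0.0981). The fold of SCD therefore depends on the probe set, from 2.53-fold to 12.1-fold with both drugs, and the cause was not tested.

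**Figure D4:**
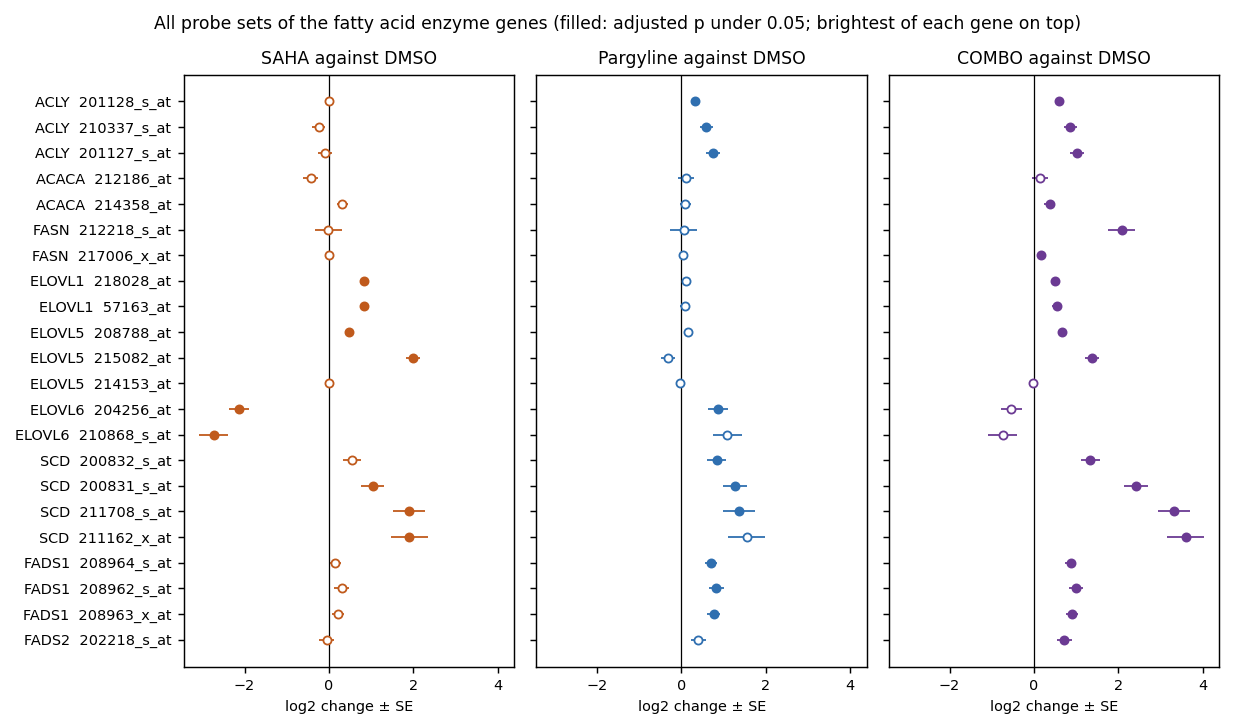
Log2 change ± SE (horizontal axis) of all 22 probe sets (rows, brightest of each gene first) in SAHA, pargyline and COMBO cells against DMSO. Filled points passed at an adjusted p under 0.05, and 18 of the 22 probe sets rose with both drugs, against 20.6% of all probe sets. The SCD probe sets spread from 1.34 to 3.60 in COMBO.

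FADS1 and FADS2, the delta-5 and delta-6 desaturases of polyunsaturated chains, are neighbours on chromosome 11 and both rose with both drugs. FADS1 read 12.30, 12.61 and 12.33 in COMBO, 11.75, 11.43 and 11.93 in SAHA, 12.32, 12.14 and 12.30 in pargyline and 11.53, 11.38 and 11.73 in DMSO arrays. COMBO overlapped pargyline, SAHA overlapped DMSO, and these pairs of groups were apart from each other. FADS1 rose by 0.87 ± 0.14 with both drugs (adjusted p = 0.000566) and by 0.71 ± 0.14 with pargyline (adjusted p = 0.0103), and changed by 0.15 ± 0.14 with SAHA (adjusted p = 0.541). SAHA lay below pargyline by -0.55 ± 0.14 (adjusted p = 0.00956). The other 2 FADS1 probe sets gave 0.90 and 0.99 in COMBO and 0.77 and 0.83 in pargyline.

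FADS2 read 11.43, 11.72 and 11.34 in COMBO, 10.79, 10.37 and 11.01 in SAHA, 11.27, 11.02 and 11.22 in pargyline and 10.90, 10.52 and 10.90 in DMSO arrays. The COMBO arrays were above all others, and SAHA overlapped DMSO. FADS2 rose by 0.72 ± 0.18 with both drugs against DMSO (adjusted p = 0.00713) and by 0.77 ± 0.18 against SAHA (adjusted p = 0.0186). With pargyline alone its change was 0.40 ± 0.18 (adjusted p = 0.203), and with SAHA -0.05 ± 0.18 (adjusted p = 0.951).

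Adding pargyline to SAHA raised 6 of the 9 genes (ACLY, FASN, ELOVL6, SCD, FADS1 and FADS2) and lowered ELOVL1, against 7.33% and 8.18% of all genes. Of these calls, that on SCD (0.78 ± 0.22, adjusted p = 0.0422) held in 3 of the 12 fits without 1 array and that on ELOVL1 in 2. With equal replicate numbers treated as pairs, the ELOVL1 call was lost (adjusted p = 0.0664) and ACACA passed as a rise (adjusted p = 0.0447). In a fit of the 11108 probe sets at or above the median level, 1575 rose and 1634 fell when COMBO was set against SAHA. Adding SAHA to pargyline raised 4 (ACLY, FASN, ELOVL1 and ELOVL5) and lowered ELOVL6, against 23.5% and 23.4%. SCD did not pass there on its brightest probe set (0.50 ± 0.22, adjusted p = 0.0981), but rose on its 3 other probe sets. In SAHA cells set against pargyline cells 2 genes were higher (ELOVL1 and ELOVL5) and 4 lower (ACLY, ACACA, ELOVL6 and FADS1), against 23% and 22.4%. Beyond FASN no member's interaction passed. The closest was ELOVL1 at -0.46 ± 0.14 (adjusted p = 0.13). At an unadjusted p under 0.05, 3 of the 9 interactions passed, against 17.2% of all genes.

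Among the comparisons with DMSO, the pargyline calls were the least firm. Of the 4 genes that rose with pargyline against DMSO, 1 was left without DMSO replicate 1, DMSO replicate 2, pargyline replicate 2 or pargyline replicate 3, and 2 without SAHA replicate 1, SAHA replicate 2 or pargyline replicate 1. FADS1 passed in all 12 of these fits, with a change of 0.62 to 0.80, SCD in 6, and ACLY and ELOVL6 in 4 each. The calls that passed in all 12 with SAHA were those of ELOVL1, ELOVL5 and ELOVL6, and all 7 COMBO calls did so too.

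Within a group the 9 genes often placed the same replicate lowest or highest, and in COMBO this order differed from that in the other groups. Replicate 2 was the lowest of its group for 7 of the 9 genes in SAHA, 5 in pargyline and 5 in DMSO, but the highest for 7 of 9 in COMBO. Replicate 3 was the highest for 8 of 9 in SAHA, 5 in pargyline and 8 in DMSO, but the lowest for 5 of 9 and the highest for 1 in COMBO. The labels do not say what the numbers share.

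Regulators of the pathway were measured on the same arrays. SREBF1, which encodes the SREBP-1 factors that drive fatty acid synthesis genes, read 10.89, 10.47 and 10.10 in COMBO, 13.01, 12.60 and 12.40 in SAHA, 8.12, 8.15 and 8.49 in pargyline and 9.80, 9.02 and 9.70 in DMSO arrays. No groups overlapped. SREBF1 rose by 3.16 ± 0.26 with SAHA (adjusted p = 7.58e-06) and by 0.98 ± 0.26 with both drugs (adjusted p = 0.0126), and fell by 1.25 ± 0.26 with pargyline (adjusted p = 0.0136). Its order of groups was the reverse of that of ELOVL6, with SAHA highest and pargyline lowest.

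SREBF2, which encodes the sterol-sensing SREBP-2, rose by 0.46 ± 0.12 with both drugs (adjusted p = 0.00999) and by 0.67 ± 0.12 with pargyline (adjusted p = 0.00642), and changed by 0.01 ± 0.12 with SAHA (adjusted p = 0.99). Its dimmer probe set gave 0.10, 0.60 and -0.49, of which the pargyline rise and the SAHA fall passed. INSIG1, which holds SREBP precursors in the endoplasmic reticulum and is itself an SREBP target, read 14.95, 14.86 and 14.40 in COMBO and 11.35, 10.46 and 11.71 in DMSO arrays. It rose by 3.57 ± 0.30 with both drugs (adjusted p = 6.15e-06), by 2.72 ± 0.30 with SAHA (adjusted p = 4.44e-05) and by 1.89 ± 0.30 with pargyline (adjusted p = 0.0035). INSIG2 rose by 1.73, 1.27 and 1.05 in COMBO, SAHA and pargyline. Of 15 regulators measured in all, 6 rose and 5 fell with both drugs (24% and 23.7% of all genes), 5 rose and 3 fell with SAHA (22.7% and 22.8%), and 4 rose and 2 fell with pargyline (7.96% and 6.78%). With array centring these counts were 6 and 6, 4 and 5, and 5 and 5. Under that scaling 2473 of 11965 genes rose and 7651 fell in COMBO, 2413 and 6216 in SAHA, and 888 and 6296 in pargyline. A direction of the list was not tested. NR1H3, which encodes the oxysterol receptor LXR-alpha, fell by 1.23 ± 0.22 with both drugs (adjusted p = 0.00107).

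The counts of 5 further lists are to be read against the shares of all genes. These are 24% rising and 23.7% falling in COMBO, 22.7% and 22.8% in SAHA, and 7.96% and 6.78% in pargyline. Counts with array centring have another background. Of 11965 genes so scaled, 2473 rose and 7651 fell in COMBO, 2413 and 6216 in SAHA, and 888 and 6296 in pargyline. Of 13 measured genes that supply carbon and NADPH, 8 rose and 0 fell with both drugs, 9 rose and 2 fell with SAHA, and 5 rose and 2 fell with pargyline. Their medians were 0.46, 0.27 and 0.28. With array centring the counts were 7 and 2, 5 and 2, and 6 and 5. SLC25A1, the mitochondrial citrate exporter, rose by 1.12 ± 0.11 in COMBO, 0.71 ± 0.11 in SAHA and 0.61 ± 0.11 in pargyline. PGD, which makes NADPH in the pentose phosphate pathway, rose by 1.35 ± 0.14 in COMBO, 0.42 ± 0.14 in SAHA and 0.78 ± 0.14 in pargyline. IDH1, another NADPH source, rose by 1.05, 0.57 and 0.93 in COMBO, SAHA and pargyline. PC, which feeds oxaloacetate to citrate, rose by 2.36 ± 0.12 in COMBO and 1.78 ± 0.12 in SAHA. Malic enzyme ME1 rose by 0.46 ± 0.11 in COMBO and 0.62 ± 0.11 in pargyline and fell by 0.38 ± 0.11 in SAHA.

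Of 11 other elongation and desaturation genes, 6 rose and 2 fell with both drugs, 5 rose and 1 fell with SAHA, and 1 rose and 3 fell with pargyline, with medians of 0.41, 0.11 and -0.02. With array centring the counts were 6 and 4, 4 and 3, and 0 and 5, and the SAHA median turned to -0.01. TECR, the last reductase of each elongation cycle, rose by 0.76 ± 0.09 in COMBO and 0.76 ± 0.09 in SAHA. CYB5R3, which passes electrons to the desaturases, rose by 0.69 ± 0.05 in COMBO and 0.72 ± 0.05 in SAHA. CYB5A, the cytochrome between them, rose by 0.41 ± 0.07 in COMBO and 0.75 ± 0.07 in SAHA. FADS3 rose by 0.92 ± 0.13 in COMBO and 0.86 ± 0.13 in SAHA and fell by 0.69 ± 0.13 in pargyline. CYB5B, a further cytochrome b5, rose by 0.61, 0.38 and 0.40 (each ± 0.11) in COMBO, SAHA and pargyline. HACD2, the dehydratase of the cycle, changed by -0.27, -0.27 and -0.25 (each ± 0.07) in the same order, past the threshold in each.

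Mitochondria hold a separate fatty acid pathway, which makes the lipoate precursor. Of 7 genes of it, 4 rose and 1 fell with both drugs, 5 rose and 2 fell with SAHA, and 0 rose and 2 fell with pargyline (0 and 5 with array centring). Medians were 0.84, 1.29 and -0.14 on the log2 scale. The reductase subunit gene CBR4 rose by 1.96 ± 0.11 in COMBO and 2.78 ± 0.11 in SAHA, and its partner HSD17B8 by 0.87 ± 0.12 and 1.78 ± 0.12, with a fall of 0.72 ± 0.12 in pargyline. The condensing enzyme gene OXSM rose by 1.07 ± 0.08 in COMBO and 1.54 ± 0.08 in SAHA. LIAS, which encodes lipoate synthase, rose by 0.84 ± 0.13 in COMBO and 1.29 ± 0.13 in SAHA and fell by 0.53 ± 0.13 in pargyline.

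Of 10 esterification genes, 5 rose and 3 fell with both drugs, 3 rose and 3 fell with SAHA, and 1 rose and 0 fell with pargyline (4 and 3, 2 and 4, and 2 and 2 with array centring). LPIN1, a phosphatidate phosphatase, rose by 2.11 ± 0.23 in COMBO, DGAT1, which makes triglyceride, by 1.51 ± 0.12 in COMBO and 1.95 ± 0.12 in SAHA, and LPCAT3, which puts polyunsaturated chains into phospholipids, by 1.78 ± 0.09 and 1.68 ± 0.09. LPCAT4, another lysophospholipid acyltransferase, fell by 1.23 ± 0.18 in SAHA, and LPIN2, a relative of LPIN1, rose by 0.91 ± 0.19 in pargyline. The SAHA counts of this list lie near the share of all genes. Of 19 fatty acid oxidation genes, 11 rose and 3 fell with both drugs, 13 rose and 2 fell with SAHA, and 4 rose and 2 fell with pargyline (8 and 4, 11 and 5, and 2 and 9 with array centring). ETFDH, which passes electrons from oxidation to ubiquinone, rose by 3.24 ± 0.15 in COMBO, 2.97 ± 0.15 in SAHA and 0.78 ± 0.15 in pargyline. CPT1A, the gate of mitochondrial import, rose by 1.17 ± 0.09 in COMBO, 0.82 ± 0.09 in SAHA and 0.53 ± 0.09 in pargyline. CPT2, the inner-membrane partner of CPT1A, rose by 1.67 ± 0.12 in SAHA, the peroxisomal thiolase gene ACAA1 by 1.24 ± 0.14 in COMBO and 1.20 ± 0.14 in SAHA, and ACADVL, which oxidises long chains, by 0.36 ± 0.09 in pargyline.

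**Figure D5:**
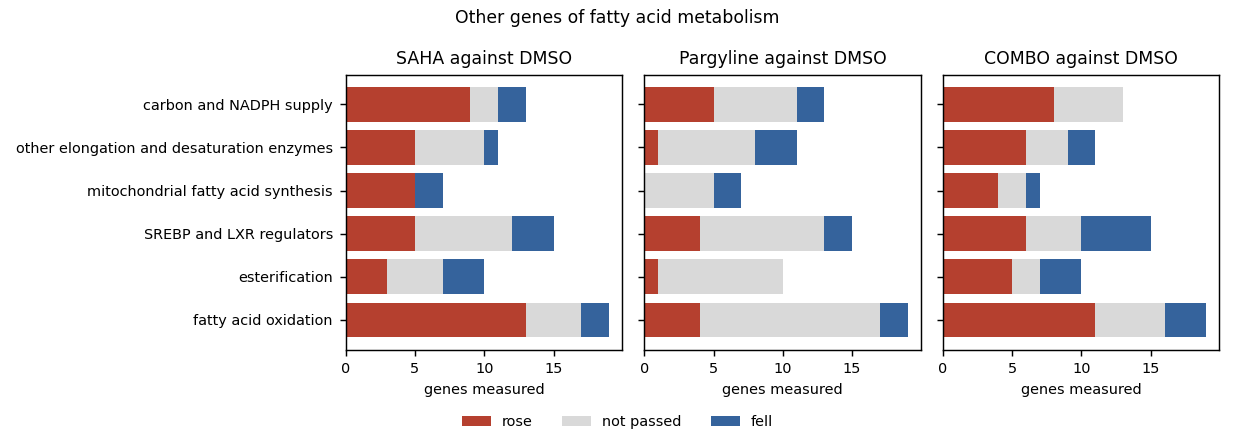
Number of measured genes (horizontal axis) that rose, did not pass or fell against DMSO in 6 lists of fatty acid metabolism (rows), for SAHA, pargyline and COMBO. With both drugs 8 of 13 carbon and NADPH supply genes rose and 0 fell, and with SAHA 13 of 19 oxidation genes rose and 2 fell.

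The genes with changes most like those of 3 members were listed, by the root mean square difference of the 3 log2 changes from DMSO over 2592 genes. Nearest to FASN were DDIT3, ZBTB40 and PMEPA1, at differences of 0.32, 0.39 and 0.45. DDIT3, the stress factor CHOP, changed by 2.53 in COMBO, 0.27 in SAHA and 0.18 in pargyline. Nearest to SCD were TRIB1, PGD and PCSK5, at 0.03, 0.08 and 0.10. Nearest to ELOVL6 were CD58, the cystine transporter gene SLC7A11 and TRIB3, at 0.16, 0.17 and 0.19. SLC7A11 changed by -0.39 in COMBO, -2.08 in SAHA and 0.63 in pargyline, beside -0.53, -2.14 and 0.87 for ELOVL6. These comparisons share the DMSO arrays and carry no test.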

How the data were processed

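RNA of 12 MDA-MB-231 cultures was measured on Affymetrix arrays. The authors deposited 1 log2 intensity per probe set and array. Per the submitters' processing notes these were made with RMA, and the version and joint normalization are not given in the sources used here. They were used as deposited, from 0.47 to 15.9. The annotation lists 19064 of the 22215 probe sets that are not controls for 1 gene, 1043 for several and 2108 for none; symbols were updated by gene identifier with RefSeq (GRCh38.p14). For FADS1 and ELOVL1, probe sets listed jointly with a microRNA were kept.

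A mean per group was fitted to all 12 arrays (8 residual degrees of freedom) with limma 3.58.1 in R 4.3.3 (lmFit, eBayes; moderated, two-sided), and p was adjusted by Benjamini-Hochberg over 22215 probe sets in each of 7 comparisons. The median SE of a difference was 0.07, and the number of arrays limits precision. The procedure was also run on simulated data with independent noise in each array. Those data lack the shared deviations of equal replicate numbers described below, so that run says nothing of pairing. Members and lists were chosen with earlier results of these data known, and support nothing as a choice. All members were named, with SREBF1, SREBF2 and, of each list and comparison with DMSO, up to 3 largest changes among genes that passed and lay above 7.07, the median over genes. Further probe sets of members and the genes of like pattern were named beside these.

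Equal replicate numbers deviated together. The 18 pairs of equal number correlated in their deviations with r from 0.0654 to 0.5004, against -0.4847 to 0.2101 for unequal numbers. For 12 of 12 arrays the best partner in another group had the same number. In pargyline with DMSO (r from 0.104 to 0.249) and in COMBO with SAHA (0.289 to 0.50) all pairs exceeded 0.1, which was taken as pairing there. In the other comparisons at least 1 pair did not. Alternatives were other scalings, filters, probe set choices, priors, weights, thresholds, the replicate block and leaving out each array.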

Additional observations from a re-analysis of the deposited data

Results flagged for a closer look

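FASN was set apart by the test of the interaction: the effect of SAHA on it differed between cells with and without pargyline by 2.04 ± 0.45 on the log2 scale (adjusted p = 0.0496, limma). SAHA changed FASN by 2.02 ± 0.32 in pargyline cells, and by -0.02 ± 0.32 in cells without it. All 3 COMBO arrays lay above all 9 other arrays. Groups of 3 arrays are too small for a test of single arrays that stand apart.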

How the results depend on the processing

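Of 9 measured genes, the number that passed with SAHA against DMSO was 3, and 5 without probe sets below the median. Of the 11108 probe sets kept there 3872 rose and 4160 fell, beside 4288 and 4532 of all 22215. With a change of at least 2-fold asked for as well, the numbers were 1 (SAHA), 0 (pargyline) and 2 (COMBO) against DMSO, 2 for COMBO against SAHA, 2 for COMBO against pargyline and 1 for SAHA against pargyline, beside 18.1%, 2.28%, 20.5%, 1.91%, 18.1% and 17.3% of all genes in that order. At an adjusted p under 0.01 they were 0 for pargyline against DMSO, 4 for COMBO against SAHA, 3 for COMBO against pargyline and 0 for the interaction, beside 7.08%, 7.22%, 39.4% and 0.56%. COMBO against SAHA, fitted on those arrays alone, gave 3 in place of 7, with fewer samples. Over all 22215 probe sets that fit gave 918 rises and 808 falls, in place of 1478 and 1502. Leaving out 1 array gave 3 to 4 genes for SAHA, 1 to 4 for pargyline and 7 to 8 for COMBO against DMSO, 4 to 8 for COMBO against SAHA (4 without SAHA replicate 2 or COMBO replicate 2), 4 to 6 for COMBO against pargyline, 5 to 7 for SAHA against pargyline and 0 to 2 for the interaction.

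The FASN interaction did not pass with quantile normalization (2.03, adjusted p = 0.0608), the replicate block (2.04, 0.0549) or a trended and robust prior (2.04, 0.0582), each leaving 0 interactions past the threshold; the cause was not tested. It was 1.09 on the mean of both FASN probe sets. The replicate block also put ELOVL6 past the threshold for COMBO against DMSO (adjusted p = 0.0406), and beside the calls on ACLY, ACACA and ELOVL1 given above it changed no other call on a member's brightest probe set. Without FADS1 and ELOVL1, an alternative chosen after seeing the data, the numbers that passed in either direction stayed within 1.5 times (2, 3, 5, 5, 4, 4 and 1 of 7 genes, in the order above), but with ELOVL1 gone 1 gene in place of 2 rose with SAHA against DMSO, 1 in place of 2 was higher in SAHA than in pargyline, and 0 in place of 1 fell in COMBO against SAHA. Of 1503 values of single genes under all alternatives, 117 lost and 35 gained the threshold, 0 reversed a call, and 42 changed sign without passing in either setting. No detection calls were used, so that probe sets with low values, such as the dimmer ones of FASN and ELOVL5, may lie at background.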
